A study of Homo sapiens with 24 samples.

Results

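The 52 genes described here encode the machinery that copies DNA in S phase and the enzymes that supply its nucleotides. They were chosen by name, with earlier results of these data known. The list covers origin recognition and licensing, origin firing, the sliding clamp and its loaders, and the replicative polymerases and primase. It also covers lagging strand maturation, fork protection, deoxynucleotide synthesis, the G1/S transition and chromatin at forks. The genes were looked up in the array table by gene symbol, and 52 of the 52 listed were measured, among 17687 genes in all. Each is read by 1 probe set, and each lay above the background level on all 24 arrays, a level set per array so that 95% of its 612 negative control probe sets lie below it.

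In G1 phase the origin recognition complex and CDC6 load the MCM2-MCM7 ring onto DNA, and in S phase the kinase CDC7 with its partner DBF4, together with CDC45 and the GINS complex, turns that ring into an active helicase. Primase and DNA polymerase alpha start each strand, the clamp loaders place the PCNA ring on DNA, and polymerases delta and epsilon extend it, while ribonucleotide reductase, thymidylate synthase and thymidine kinase feed the fork with nucleotides. Many of these genes are transcribed at the G1/S transition under E2F transcription factors. SLFN11, the gene removed in the derivative line, is known to be recruited to stressed replication forks and to block their progress after DNA damage.

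RNA was compared between ES8, a line derived from a human Ewing sarcoma, and ES8-1F2, a derivative of it made by CRISPR/Cas9 knockout of SLFN11. Cells of both lines were grown in DMEM/F12 medium with glutamine and fetal bovine serum, and their RNA was taken 4 h or 24 h after a gamma ray dose of 0 Gy or 2 Gy, which gives 8 groups of 3 arrays: parental 0 Gy at 4 h and 24 h, parental 2 Gy at 4 h and 24 h, and the same 4 conditions of the knockout line. The knockout is represented by 1 derivative line, so loss of SLFN11 and any other difference between this derivative and its parent cannot be told apart. The labels do not say whether the 3 replicates of a group came from separate cultures; p-values here therefore reflect only how far these samples spread, which may be technical variation.

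The SLFN11 signal lay between 8.03 and 8.63 on the log2 scale on the 12 parental arrays and between 6.33 and 7.07 on the 12 knockout arrays, without overlap; the latter is still above the background level, which was at most 3.81, and which part of the gene this probe set reads was not examined. Ewing sarcoma markers were above background on all 24 arrays for 8 of 8 measured genes. The same held for 2 of 6 epithelial markers (KRT8 and KRT19), 1 of 5 blood markers (CD14) and 2 of 5 endothelial markers (VWF and CLDN5). The epithelial cadherin CDH1 and the endothelial receptor TEK were above background on 0 arrays and the leukocyte antigen PTPRC on 1. All values below are log2 signals or differences between them, so they compare 1 gene across samples and never the level of one gene with that of another. In these whole-culture samples, fewer cells in S phase and less RNA per cell cannot be told apart.

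For a comparison of 3 arrays with 3, the 95% interval of a member's difference reached a median of 0.21 log2 units to either side, and 0.11 for the mean line difference over the 4 conditions. A gene is said to have risen or fallen, or to be called, where its Benjamini-Hochberg adjusted p over all 17687 genes in the limma fit was below 0.05.

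Averaged over the 4 conditions, 19 of the 52 replication genes differed between the lines: 15 were higher in the knockout line and 4 were lower. This is 36.5% of them, against a background of 30.4% of all genes called in the same comparison, of which 15.8% were higher and 14.6% lower. The median difference over the 52 genes was 0.04, with 36 above 0 and 16 below, and over all genes it was -0.02. The share called in either direction lies close to the background, but the calls lean to higher. Of the 52 genes, 15 were called higher, against 15.8% of all genes, and 4 lower, against 14.6%. That lean was weaker without the parental arrays of narrow signal range described below. With these left out, 13 genes were called higher and 6 lower, and the median difference was 0.02 instead of 0.04. No test of the group was made, and the genes are described by their individual members. The members with the widest separation were DSCC1 (1.48), PCNA (-0.54), CDC7 (-0.44), PRIM1 (-0.37), TYMS (0.37) and MCM6 (0.32), and 33 members were not called.

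**Figure D1:**
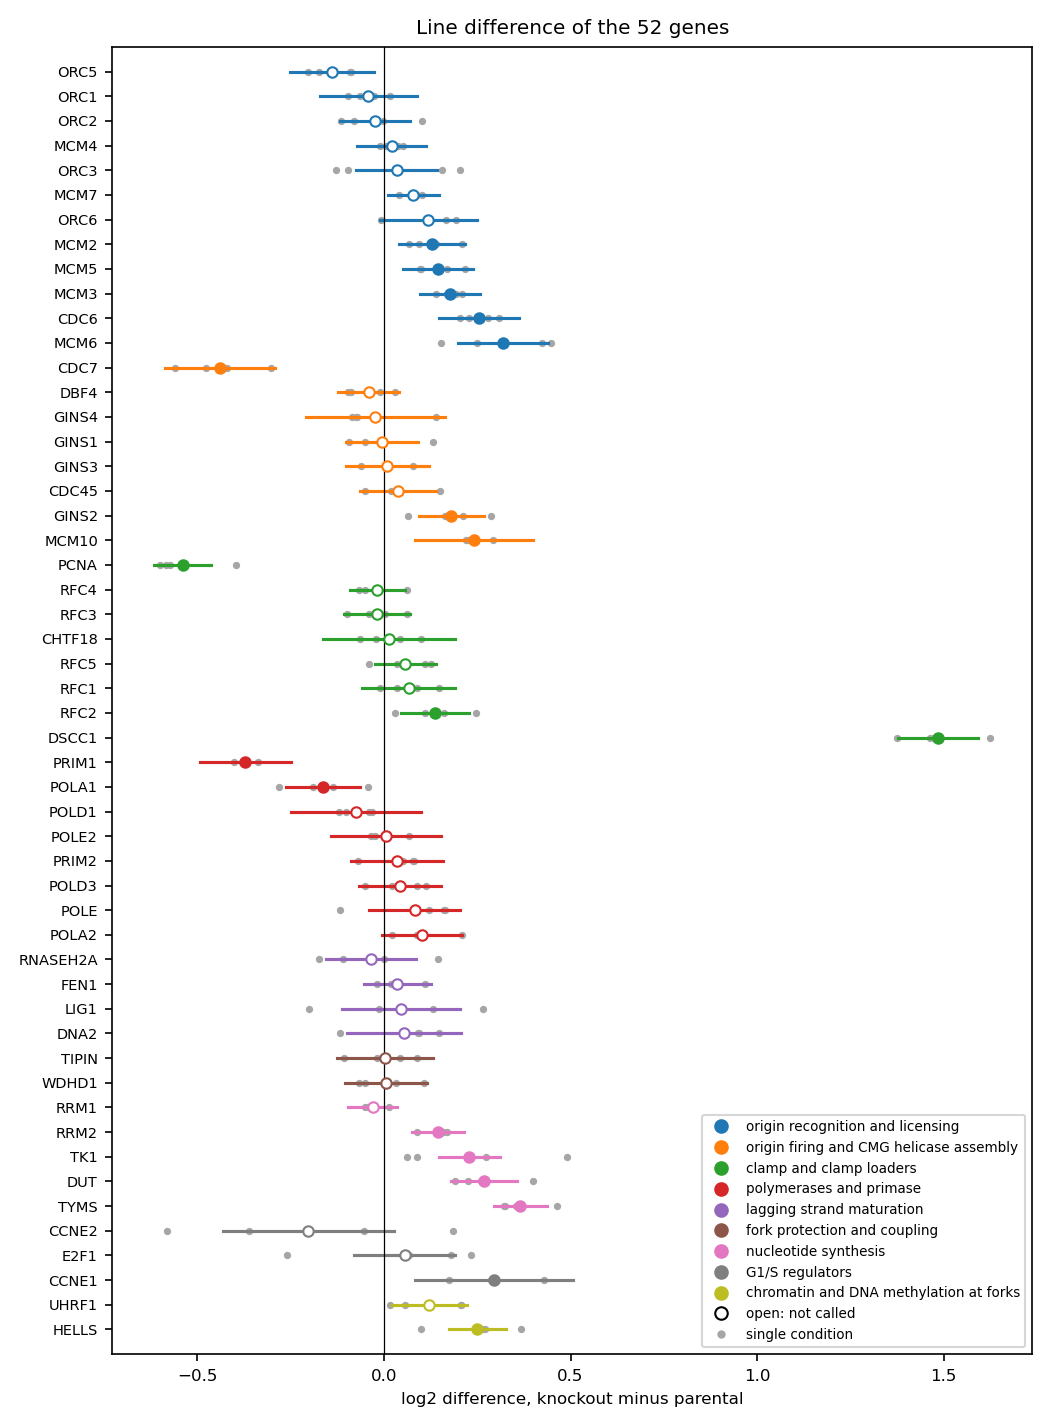
Log2 difference, knockout minus parental, of each of the 52 genes, ordered by role: large points are the mean over 4 conditions with its 95% interval (12 arrays against 12), filled where called, and small grey points are the single conditions (3 arrays against 3). DSCC1 lies at 1.48 and PCNA at -0.54, while 33 genes have open points.

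Promoter sequence is shown for 5 members whose line difference is described below, 3 that were higher (TYMS, MCM6, HELLS) and 2 that were lower (PCNA, PRIM1), to set the letters of the E2F-type motifs beside their direction. The sequences are the 250 bases before the transcription start in RefSeq, build GRCh38.p14, read 5′ to 3′ on the strand of the gene, and capitals mark a match to TTTCGCGC, TTTGGCGC, TTTCCCGC or TTTGCCGC on either strand. PCNA (chr20:5126623-5126872, minus strand) holds 1 match, which begins 59 bases before the start; RefSeq gives PCNA a second start, and the 250 bases before that one (chr20:5119959-5120208) hold none. TYMS (chr18:657403-657652, plus strand) also holds 1, at 39 bases. MCM6 (chr2:135876444-135876693, minus strand) holds 4 matches, as 2 overlapping pairs beginning 152 and 148 and again 90 and 86 bases before the start. HELLS (chr10:94545538-94545787, plus strand) holds 2, at 76 and 8 bases. PRIM1 (chr12:56752324-56752573, minus strand) holds none of these letters in this window.
PCNA: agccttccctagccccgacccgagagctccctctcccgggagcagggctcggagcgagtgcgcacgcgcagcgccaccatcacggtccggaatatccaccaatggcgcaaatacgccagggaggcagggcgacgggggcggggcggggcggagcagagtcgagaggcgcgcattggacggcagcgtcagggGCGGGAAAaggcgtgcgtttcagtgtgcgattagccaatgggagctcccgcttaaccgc
TYMS: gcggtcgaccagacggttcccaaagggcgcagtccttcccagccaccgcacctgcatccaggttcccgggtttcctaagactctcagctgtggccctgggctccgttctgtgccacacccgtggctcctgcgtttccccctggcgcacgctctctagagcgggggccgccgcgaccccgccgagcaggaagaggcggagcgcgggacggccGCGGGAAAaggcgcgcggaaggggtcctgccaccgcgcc
MCM6: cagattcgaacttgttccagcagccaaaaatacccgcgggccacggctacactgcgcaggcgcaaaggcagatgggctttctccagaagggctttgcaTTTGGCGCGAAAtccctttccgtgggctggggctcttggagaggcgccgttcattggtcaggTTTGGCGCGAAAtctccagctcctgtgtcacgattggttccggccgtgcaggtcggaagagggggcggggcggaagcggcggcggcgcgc
HELLS: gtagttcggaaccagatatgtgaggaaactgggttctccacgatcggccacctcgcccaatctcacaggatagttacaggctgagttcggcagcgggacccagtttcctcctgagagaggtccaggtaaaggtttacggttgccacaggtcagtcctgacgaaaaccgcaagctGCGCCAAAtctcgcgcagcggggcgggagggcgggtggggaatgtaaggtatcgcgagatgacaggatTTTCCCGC
PRIM1: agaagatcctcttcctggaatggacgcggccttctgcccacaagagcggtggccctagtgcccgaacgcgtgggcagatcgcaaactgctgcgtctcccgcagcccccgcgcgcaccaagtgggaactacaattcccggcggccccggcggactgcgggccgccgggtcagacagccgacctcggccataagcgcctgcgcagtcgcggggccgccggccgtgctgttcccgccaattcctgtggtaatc
The printed PCNA and TYMS windows carry the same letters, the TTTCCCGC motif on the opposite strand, although PCNA was lower and TYMS higher in the knockout line.

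RefSeq windows, which run from 250 bases before to 50 bases after a start, were matched for 45 of the 52 members. At least 1 of the 4 E2F-type motifs stood in the windows of 23 members (51.1%), against 762 of the 14250 genes of the array table with a window (5.3%). Counted by window, these were 24 of 61 (39.3%) against 809 of 20090 (4.0%). The CCAAT box, searched as CCAAT on both strands, was in 27 members (60.0%) and in 42.3% of all genes. Among members called higher in the knockout line 8 of 13 with a window held an E2F-type motif, among those called lower 3 of 4, and among those not called 12 of 28. Both directions of change therefore include genes with the motif, and a match describes the letters, not a bound site.

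Of the 12 origin recognition and licensing genes, 5 were called higher in the knockout line and none lower, and the median difference was 0.10. Over all genes 15.8% were higher and 14.6% lower in this comparison. MCM6, a subunit of the MCM2-MCM7 ring, ran from 6.79 through a median of 7.30 to 7.45 on the parental arrays and from 7.36 through 7.57 to 7.74 on the knockout arrays. Its ranges overlap only at their edges, and the mean difference was 0.32 (SE 0.06, n = 12 arrays a line, limma adjusted p = 6.07e-05). The 2 lowest parental values, 6.79 and 6.88, came from the 2 arrays of narrow signal range described below, and every other parental array was at 7.23 or above. Without those 2 arrays the MCM6 difference at 2 Gy, 4 h was 0.27 instead of 0.42 and was not called (limma adjusted p = 0.122). CDC6, which loads the ring, ran from 8.37 through 8.53 to 8.79 in parental and from 8.62 through 8.76 to 9.02 in knockout cells, a difference of 0.25 (SE 0.05, adjusted p = 0.000241).

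The other ring subunits were split. MCM3 was higher by 0.18 (adjusted p = 0.00064), MCM5 by 0.15 (adjusted p = 0.014) and MCM2 by 0.13 (adjusted p = 0.0238). MCM2 ran from 7.94 through 8.02 to 8.33 in parental and from 7.99 through 8.15 to 8.34 in knockout cells, so the lines overlap over most of their range. Without knockout 0 Gy, 4 h replicate 3 its difference was 0.11 and its adjusted p 0.0571, which misses the threshold. MCM7 (0.08, adjusted p = 0.0768) and MCM4 (0.02, adjusted p = 0.783) were not called. Nor were the subunits of the origin recognition complex, from ORC5 at -0.14 (adjusted p = 0.0527) to ORC6 at 0.12 (adjusted p = 0.176).

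Among the 8 genes of origin firing and helicase assembly, 2 were higher and 1 was lower, with a median of 0.00. The background was 15.8% of all genes higher and 14.6% lower. The lower gene was CDC7, the kinase that phosphorylates the loaded MCM ring. Its signal ran from 7.19 through 7.81 to 8.20 in parental and from 7.04 through 7.33 to 7.75 in knockout cells, and the difference was -0.44 (SE 0.07, adjusted p = 8.92e-06). The lowest parental value, 7.19, came from 2 Gy, 4 h replicate 2, 1 of the 2 arrays of narrow signal range described below, and every other parental array was at 7.47 or above. DBF4, the partner that activates CDC7, was not called (-0.04, adjusted p = 0.498), so the kinase and its activator were not called together.

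MCM10, which helps to start the helicase, was higher by 0.24 (SE 0.08, adjusted p = 0.0158), and GINS2, a subunit of the GINS complex, by 0.18 (SE 0.04, adjusted p = 0.000978). GINS1 (-0.01), GINS3 (0.01), GINS4 (-0.02) and CDC45 (0.04) were not called, and their adjusted p-values were 0.632 or more.

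The clamp and its loaders held the highest and the lowest difference of the set. DSCC1, a subunit of the alternative clamp loader that acts in sister chromatid cohesion, ran from 7.02 through 7.38 to 7.54 in parental and from 8.73 through 8.80 to 9.12 in knockout cells. Every knockout array was above every parental array, and the mean difference of 1.48 (SE 0.05, adjusted p = 2.32e-21) corresponds to 2.80-fold. In the single conditions the difference ranged from 1.37 (2 Gy, 4 h) to 1.62 (0 Gy, 24 h), and each was called.

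PCNA, the sliding clamp itself, ran from 9.39 through 9.72 to 9.80 in parental and from 8.98 through 9.13 to 9.28 in knockout cells. Here every knockout array was below every parental array, and the difference was -0.54 (SE 0.04, adjusted p = 1.24e-13), or 0.688 times the parental level. By condition it was -0.57 at 0 Gy, 4 h, -0.60 at 0 Gy, 24 h, -0.58 at 2 Gy, 4 h and -0.40 at 2 Gy, 24 h, each called. The gap was narrowest at 2 Gy, 24 h, where the parental arrays read 9.53, 9.39 and 9.48. CHTF18, the large subunit of the loader that contains DSCC1, was not called (0.01, adjusted p = 0.931). Of the 5 subunits of the canonical loader, RFC2 was higher by 0.14 (adjusted p = 0.0173), and RFC1, RFC3, RFC4 and RFC5 lay between -0.02 and 0.07, not called.

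**Figure D2:**
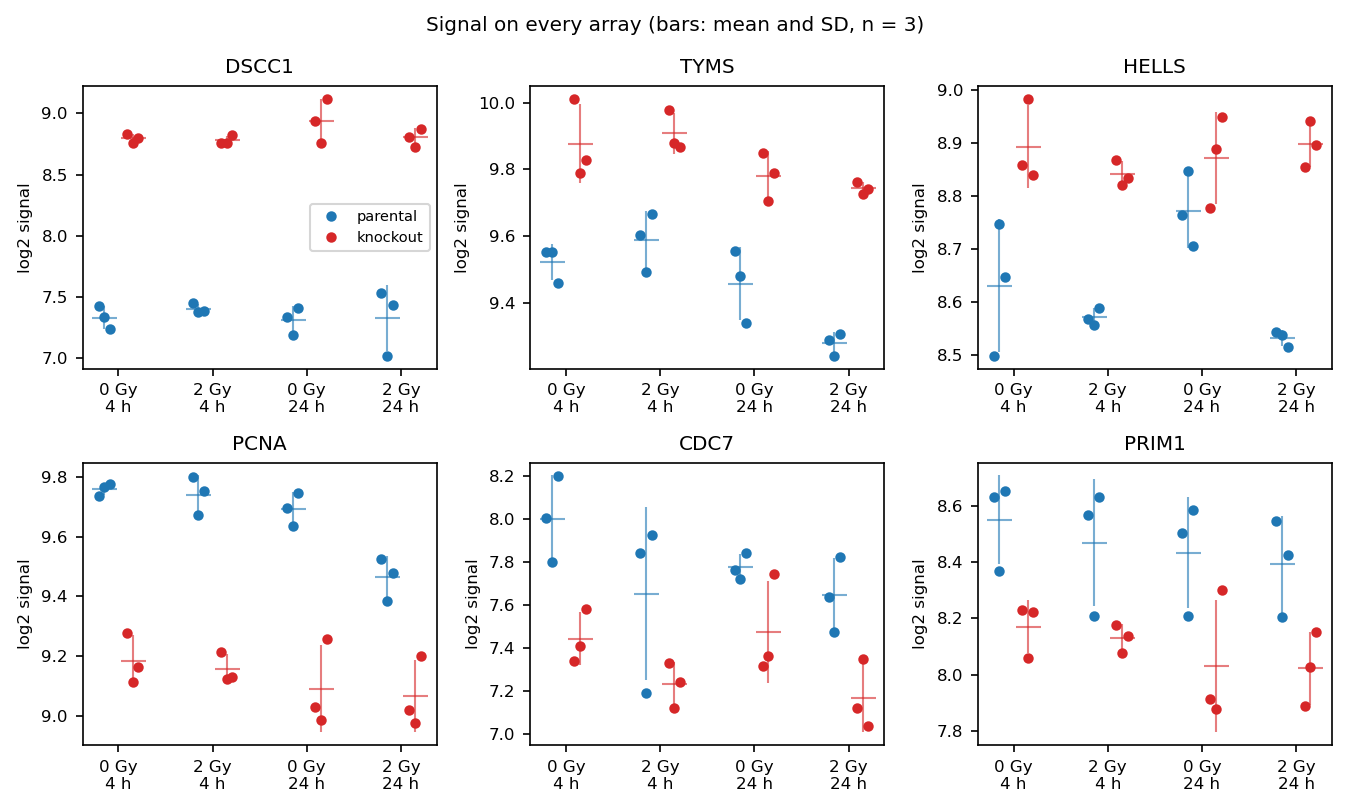
Log2 signal on every array for 6 members by dose and time, with parental cells in blue and knockout cells in red (3 arrays a group, crosses show mean and SD; each panel has its own axis). DSCC1, TYMS and PCNA have no overlap between the lines over all 24 arrays, whereas HELLS, CDC7 and PRIM1 have. The share of all genes without such overlap was not counted, and 6.4% of all genes were called between the lines in all 4 conditions.

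Both subunits that begin DNA synthesis and were called fell: PRIM1, the catalytic subunit of primase, and POLA1, the catalytic subunit of polymerase alpha. PRIM1 ran from 8.21 through 8.52 to 8.65 in parental and from 7.88 through 8.11 to 8.30 in knockout cells. The difference was -0.37 (SE 0.06, adjusted p = 6.68e-06) and lay between -0.40 and -0.34 in the 4 conditions. The lowest parental arrays, at 8.21, and the highest knockout array, at 8.30, overlap. POLA1 was lower by a smaller amount, at -0.16 (SE 0.05, adjusted p = 0.00907). The partner subunits PRIM2 (0.04, adjusted p = 0.726) and POLA2 (0.10, adjusted p = 0.152) were not called, nor were the genes of polymerases delta and epsilon, POLD1 (-0.07), POLD3 (0.04), POLE (0.08) and POLE2 (0.01). In lagging strand maturation, 0 of 4 genes were called: FEN1 (0.04), LIG1 (0.05), DNA2 (0.05) and RNASEH2A (-0.03). Of the fork factors TIPIN (0.00) and WDHD1 (0.01), 0 were called. The 95% intervals of these 6 genes all included 0.

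Of the 5 nucleotide synthesis genes, 4 were called, all higher, with a median of 0.23; over all genes 30.4% were called and 15.8% were higher in this comparison. TYMS, which makes thymidylate, ran from 9.24 through 9.49 to 9.67 in parental and from 9.71 through 9.81 to 10.01 in knockout cells. No parental array reached a knockout array, and the difference was 0.37 (SE 0.04, adjusted p = 2.46e-10), or 1.29-fold. It was called in each condition, at 0.35 (0 Gy, 4 h), 0.32 (0 Gy, 24 h), 0.32 (2 Gy, 4 h) and 0.46 (2 Gy, 24 h). DUT, which keeps uracil out of DNA by cleaving dUTP, was higher by 0.27 (SE 0.04, adjusted p = 6.87e-06).

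TK1, the salvage kinase for thymidine, was higher by 0.23 (SE 0.04, adjusted p = 2.55e-05), but unevenly: the difference was 0.49 at 0 Gy, 4 h and 0.06 in the condition where it was smallest. RRM2, the regulated subunit of ribonucleotide reductase, ran from 9.72 through 9.84 to 9.98 in parental and from 9.85 through 10.01 to 10.10 in knockout cells. The lines overlap in much of that range, and the difference was 0.14 (SE 0.03, adjusted p = 0.00107). RRM1, the other subunit of the enzyme, was not called (-0.03, adjusted p = 0.543).

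Of the G1/S regulators, CCNE1, a cyclin E that drives entry into S phase, was higher by 0.29 (SE 0.10, adjusted p = 0.0284). That call was lost, with adjusted p from 0.0536 to 0.0721, on leaving out any 1 of 8 arrays: parental 0 Gy, 4 h replicate 1, parental 2 Gy, 4 h replicates 1 and 2, parental 2 Gy, 24 h replicate 2, knockout 0 Gy, 4 h replicate 3, knockout 0 Gy, 24 h replicate 1, knockout 2 Gy, 4 h replicate 3 and knockout 2 Gy, 24 h replicate 3. CCNE2, the second cyclin E, ran from 5.19 through 5.90 to 6.42 in parental and from 5.11 through 5.70 to 6.19 in knockout cells, a difference of -0.20 (SE 0.11, adjusted p = 0.187) that changed sign between conditions, from -0.58 to 0.18. E2F1, the transcription factor, ran from 6.08 through 6.37 to 6.69 and from 6.17 through 6.46 to 6.57, a difference of 0.06 (SE 0.07, adjusted p = 0.595). Neither was called.

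HELLS, a chromatin remodeler of the SNF2 family that supports DNA methylation, ran from 8.50 through 8.58 to 8.85 in parental and from 8.78 through 8.86 to 8.98 in knockout cells, a difference of 0.25 (SE 0.04, adjusted p = 2.01e-06). UHRF1, which recruits the maintenance methyltransferase to newly copied DNA, was not called (0.12, adjusted p = 0.0591).

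The single conditions, with 3 arrays a line, called fewer members. At 0 Gy, 4 h, 5 were higher and 3 lower (background 11.8% of all genes). At 0 Gy, 24 h, 2 were higher and 2 lower (background 11.6%). At 2 Gy, 4 h, 5 were higher and 1 lower, and at 2 Gy, 24 h, 6 were higher and 3 lower, each against a background of 12% of all genes. These counts, 8, 4, 6 and 9 of 52, are at most 17.3% of the members. DSCC1, PCNA and TYMS were called in all 4 conditions, and their 12 calls held on leaving out any 1 of the compared arrays. These 3 are 5.8% of the members, and 6.4% of all genes were called in all 4. The other 7 members called in some condition were HELLS and PRIM1 in 3, MCM6, CDC7, TK1 and DUT in 2 and GINS2 in 1, and 11 of their 15 calls were lost without some array. At 0 Gy, 4 h the count fell from 8 to 5 without parental replicate 1 or without knockout replicate 2. A further 42 members (80.8%) were called in none, as were 80.0% of all genes.

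The genomic surroundings of the members were described through the 10 measured genes on either side in RefSeq order. PCNA lies on chromosome 20 among genes that were also lower in the knockout line: the median difference of its 20 neighbours was -0.61, 14 of them were called lower and 0 higher, and 11 differed by more than PCNA itself. The genes directly beside it, named here by position, are TMEM230 (-0.67) and CDS2 (-0.84). MCM8, a helicase gene outside the set on the same chromosome, was at -0.80 (SE 0.07, limma adjusted p = 2.44e-11). The PCNA difference of -0.54 is smaller in size than the median of its stretch.

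DSCC1 lies among genes that were also higher, with a neighbour median of 0.49 and 11 of 20 called higher, 0 lower. Its adjacent genes, TAF2 (1.20) and DEPTOR (0.42), and MTBP, an origin firing factor encoded within the same neighbourhood (1.49, SE 0.05, adjusted p = 1.41e-22), were all above 0. Of the 20 neighbours, 4 differed by more than DSCC1 itself. PRIM1 had a neighbour median of -0.18 with 9 of 20 called lower and 0 higher. DNA2 was not called (0.05) although 13 of its 20 neighbours were called higher, with a median of 0.28. CCNE2, also not called (-0.20), had a neighbour median of -0.19 with 11 called lower.

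MCM10, called higher (0.24), had a neighbour median of 0.14, with 9 of 20 neighbours called higher and 2 lower. Over all genes, the 5th and 95th percentiles of the neighbour median were -0.13 and 0.10. For most other members the surroundings were level. TYMS, with 15 neighbours, had a neighbour median of -0.01, MCM6 of 0.03 and CDC7 of -0.09. Of the 52 members, 3 had a neighbour median beyond 0.2 in size, against 4.26% of all genes, and 10 of the 19 called members shared the sign of their neighbour median. What the shifts of whole stretches contribute to the values of DSCC1, PCNA, PRIM1 and MCM10 was not tested.

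**Figure D3:**
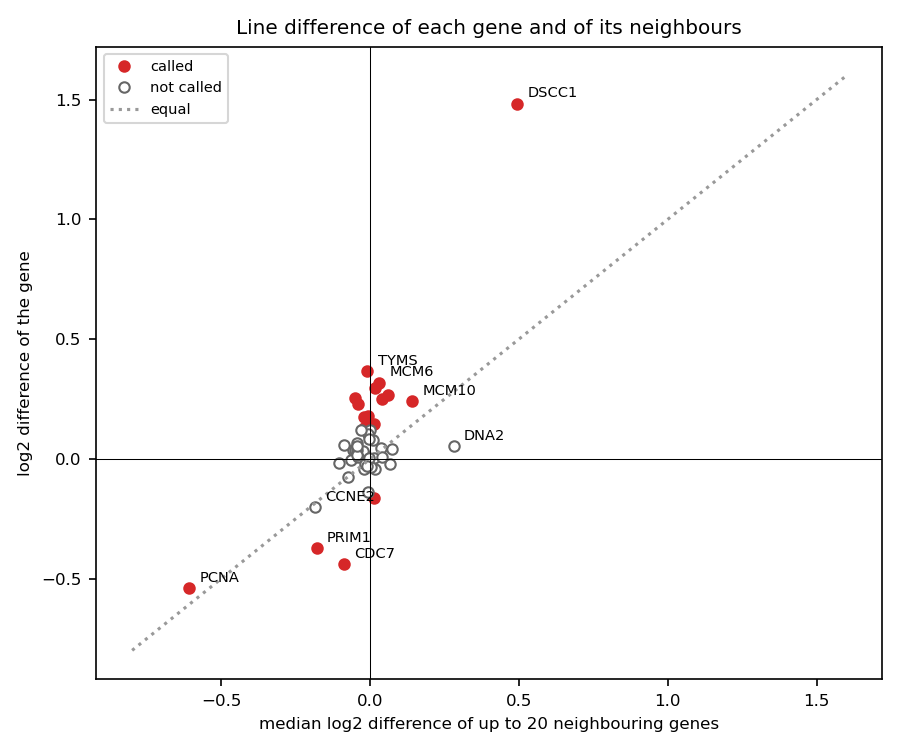
Line difference of each member (vertical, log2, mean over 4 conditions) against the median difference of up to 20 neighbouring genes (horizontal, log2), filled where the member was called; the dotted line marks equality. PCNA (-0.61, -0.54) lies near the line and DSCC1 (0.49, 1.48) above it, while TYMS and MCM6 lie close to 0 on the horizontal axis.

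Irradiation called 0 of the 52 members in either line at either time in limma. The background was as low: 0.226% of all genes in parental cells at 4 h, 0.0678% in parental cells at 24 h, 0% in knockout cells at 4 h and 0% in knockout cells at 24 h. At an unadjusted p below 0.05 the members numbered 5, 8, 1 and 1 in that order, and all genes 1183, 1225, 583 and 736. The median differences of the members were 0.04 and -0.09 in parental cells at 4 h and 24 h and 0.01 and -0.01 in knockout cells, where they became -0.03 without 0 Gy, 4 h replicate 1 and 0.02 without 0 Gy, 24 h replicate 3. In parental cells the 4 h median was 0.01 without 0 Gy, 4 h replicate 1, and the 24 h median lay between -0.15 (without 2 Gy, 24 h replicate 1) and -0.04 (without 2 Gy, 24 h replicate 2).

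In parental cells 24 h after 2 Gy, 39 of the 52 members lay below their unirradiated level and 13 above. The median difference was -0.09 for the members and 0.007 for all genes. All members are read on the same arrays and can shift together, so such counts are not separate readings. The 8 with an unadjusted p below 0.05, singled out after their values were seen, were HELLS, PCNA, POLA1, RFC4, LIG1, POLE, TYMS and DUT, all below 0. HELLS read 8.77, 8.85 and 8.71 without irradiation and 8.54, 8.54 and 8.51 after 2 Gy, a difference of -0.24 (SE 0.08, adjusted p = 0.378). PCNA read 9.70, 9.63 and 9.75 and then 9.53, 9.39 and 9.48, a difference of -0.23 (SE 0.08, adjusted p = 0.4). In both the groups do not overlap, which a choice by small p favours, and neither was called. The share of all genes without overlap was not counted. The largest differences were those of CCNE2 (-0.44, SE 0.22), LIG1 (-0.42, SE 0.16) and POLE (-0.32, SE 0.12), with adjusted p of 0.51 or more. Without 2 Gy, 24 h replicate 2 the CCNE2 difference was -0.24.

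LIG1, which seals the nicks between Okazaki fragments, read 5.83, 5.71 and 5.92 without and 5.50, 5.21 and 5.48 with irradiation in parental cells at 24 h. In knockout cells at the same time it read 5.55, 5.49 and 5.82 and then 5.52, 5.65 and 5.82, so the 2 groups overlap there. CCNE2 in parental cells read 5.90, 5.96 and 6.24 and then 5.97, 5.19 and 5.62, with overlap, and in knockout cells 5.45, 5.25 and 5.66 and then 5.81, 5.47 and 6.05.

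The shift of the members in irradiated parental cells at 24 h moves with 1 array. Parental 2 Gy, 24 h replicate 2 and parental 2 Gy, 4 h replicate 2 have narrower signal distributions than the other arrays. On the former, the median deviation of the 52 genes from their mean in the line was -0.16, with 6 of 52 above that mean, while on the other 23 arrays it lay between -0.08 and 0.11. Without these 2 arrays the median of the 52 genes at 24 h after 2 Gy in parental cells was -0.04 instead of -0.09.

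**Figure D4:**
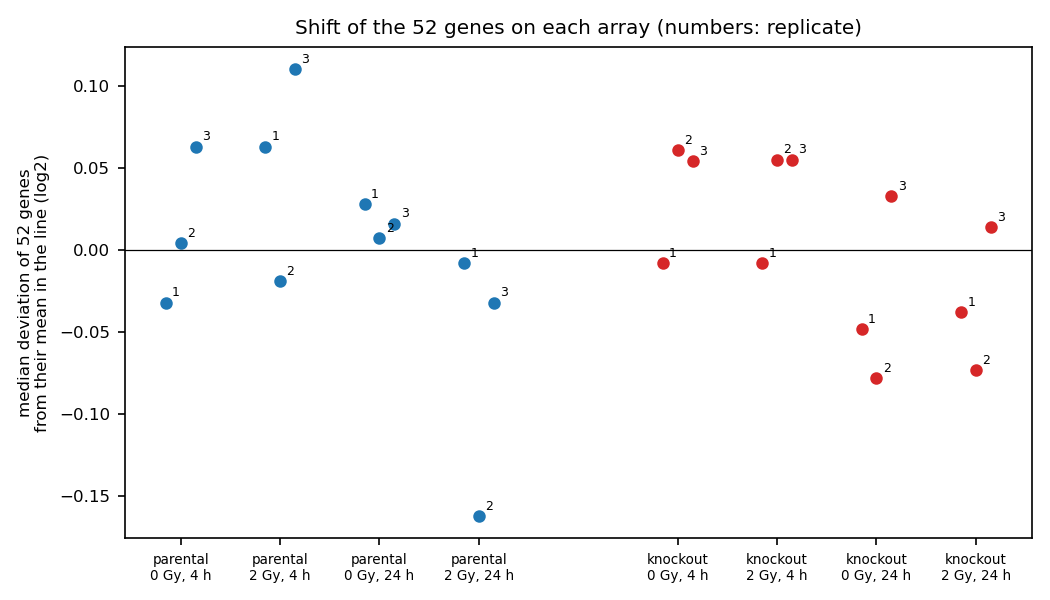
Median deviation of the 52 genes from their mean in the same line (log2) on each of the 24 arrays, with replicate numbers beside the points. Parental 2 Gy, 24 h replicate 2 lies at -0.16, below the range of -0.08 to 0.11 of the other arrays.

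At 4 h in parental cells the largest differences were those of CDC7 (-0.35, SE 0.14), MCM6 (-0.28, SE 0.12) and TK1 (0.23, SE 0.08), none called. CDC7 read 8.01, 7.80 and 8.20 without and 7.84, 7.19 and 7.93 with irradiation, and MCM6 7.29, 7.45 and 7.44 and then 7.30, 6.79 and 7.24. In both, replicate 2, an array of narrow signal range, is the lowest of the irradiated group, and without it each difference was -0.12. In knockout cells the largest at 4 h were those of DNA2 (0.22), CDC7 (-0.21) and DBF4 (-0.20), and at 24 h those of CCNE2 (0.33), CDC7 (-0.31) and CCNE1 (0.24). Single arrays carry much of several of these: DNA2 was at 0.05 without 2 Gy, 4 h replicate 3 and 0.40 without 0 Gy, 4 h replicate 3, CDC7 at 24 h was at -0.17 without 0 Gy, 24 h replicate 3, and without 2 Gy, 24 h replicate 3 CCNE2 was at 0.19 and CCNE1 at 0.13.

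Pooling both lines, with 6 arrays against 6, also called 0 members at 4 h and at 24 h, against a background of 0.384% and 0.0678%. At an unadjusted p below 0.05 the members numbered 6 and 8, and all genes 1235 and 1461. At 4 h the largest differences were those of CDC7 (-0.28), MCM6 (-0.20) and DBF4 (-0.18), and at 24 h those of POLE2 (-0.23), CDC7 (-0.22) and LIG1 (-0.19). Without parental 2 Gy, 4 h replicate 2 CDC7 and MCM6 at 4 h were at -0.17 and -0.12, and without parental 2 Gy, 24 h replicate 2 POLE2 at 24 h was at -0.13. CDC7 lay below 0 after 2 Gy in both lines at both times, also in parental cells at 24 h (-0.13, SE 0.14), without a call in any.

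Whether the lines differed in their response to 2 Gy was tested as an interaction, and 0 members were called at 4 h or at 24 h (background 0% and 0%; 0 and 4 members and 461 and 560 of all genes at an unadjusted p below 0.05). At 24 h the largest differences between the responses were those of CCNE2 (0.76, SE 0.32), LIG1 (0.47, SE 0.22) and E2F1 (0.44, SE 0.19), each with an adjusted p of 1. E2F1 read 6.57, 6.37 and 6.53 and then 6.39, 6.10 and 6.30 in parental cells, and 6.32, 6.20 and 6.17 and then 6.47, 6.29 and 6.57 in knockout cells. Its group mean was lower after 2 Gy in parental cells and higher in knockout cells, with overlap between the doses in both lines. For a difference between responses, the 95% interval of the members reached a median of 0.30 log2 units to either side. At 4 h the largest were those of RNASEH2A (-0.32), CCNE2 (0.31) and DNA2 (0.26). On leaving out 1 array, CCNE2 lay between 0.03 (knockout 0 Gy, 4 h replicate 1 left out) and 0.57 (replicate 3 of that group), and DNA2 between 0.10 (knockout 2 Gy, 4 h replicate 3) and 0.45 (knockout 0 Gy, 4 h replicate 3).

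The time since treatment called 1 member in 1 of 4 comparisons. From 4 h to 24 h after 2 Gy, TYMS fell in parental cells: it read 9.60, 9.49 and 9.67 at 4 h and 9.29, 9.24 and 9.31 at 24 h, without overlap. The difference was -0.31 (SE 0.07, limma adjusted p = 0.0243), against a background of 0.695% of all genes called in this comparison. The call was lost, with adjusted p from 0.0688 to 0.134, on leaving out any 1 of the 6 compared arrays except 2 Gy, 4 h replicate 2. The differences then lay between -0.32 and -0.27. It was also lost in a fit to the compared arrays alone (adjusted p = 0.103), without the intensity trend (adjusted p = 0.194) and when the 2 narrow arrays were left out (adjusted p = 0.0851).

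The median of the 52 genes in that comparison was -0.12, with 47 below 0 and 5 above. Over all genes the median was -0.007. Members read on the same arrays can shift together, so the count is not one of separate readings. The median of the 52 genes was -0.06 without 2 Gy, 24 h replicate 2 and -0.08 without 2 Gy, 4 h replicate 3. In unirradiated parental cells the median was -0.01, with 28 below 0, and 0 members and 0% of all genes were called (1 member and 830 of all genes at an unadjusted p below 0.05). TYMS there read 9.55, 9.55 and 9.46 at 4 h and 9.55, 9.48 and 9.34 at 24 h, with overlap. The largest differences in unirradiated parental cells were those of E2F1 (0.26), POLE (0.23) and CDC7 (-0.23), the last at -0.13 without 0 Gy, 4 h replicate 3.

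In knockout cells the time comparison called 0 members at 0 Gy and 0 at 2 Gy, against a background of 0% and 0.0452%, and at an unadjusted p below 0.05 there were 3 members and 1215 of all genes at 0 Gy and 3 members and 1405 of all genes at 2 Gy. Most members lay below 0 in both, 37 and 39 of 52, with medians of -0.04 and -0.07. The medians of all genes were 0.012 and 0.0035. TK1 had the largest member difference at each dose, and a choice by size favours groups without overlap. Without irradiation it read 8.95, 8.77 and 8.72 at 4 h and 8.43, 8.39 and 8.51 at 24 h, without overlap, a difference of -0.37 (SE 0.08, adjusted p = 0.391, and 0.0241 with the replicate number as a block). ORC6 (-0.29) and LIG1 (-0.28) came next. After 2 Gy it read 8.82, 8.85 and 8.80 and then 8.50, 8.48 and 8.68, also without overlap, a difference of -0.27 (SE 0.08, adjusted p = 0.298). The next largest at 2 Gy were those of POLD3 (-0.25) and MCM10 (-0.23), the latter at -0.12 without 2 Gy, 24 h replicate 2 and at -0.14 without 2 Gy, 4 h replicate 3.

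**Figure D5:**
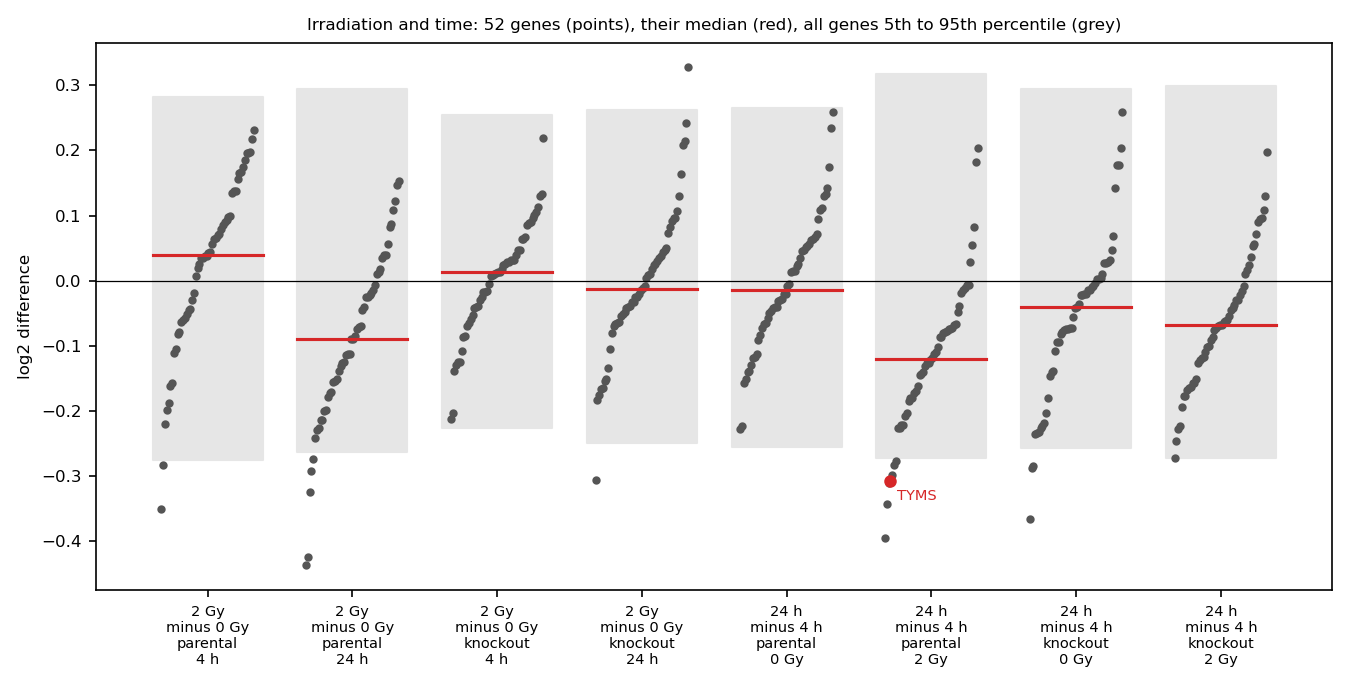
Log2 differences of the 52 genes for 2 Gy minus 0 Gy and for 24 h minus 4 h in each line, with 1 grey point a gene, a red line at their median and a grey band from the 5th to the 95th percentile of all genes. TYMS, in red at -0.31 for 24 h minus 4 h in parental cells after 2 Gy, is the 1 called gene; the median there is -0.12, and for the dose in parental cells at 24 h it is -0.09.

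Genes of the same pathways outside the set, also listed with earlier results of these data known, differed between the lines in both directions as well. Of 35 measured replication factors, 11 were higher and 6 lower in the mean of 4 conditions, for which 15.8% of all genes were higher and 14.6% lower. They include MTBP (1.49), RAD18 (0.47), an E3 ligase that modifies PCNA, and POLD4 (0.44), a small subunit of polymerase delta. On the lower side were MCM8 (-0.80), SLBP (-0.42), which binds the stem-loop of histone mRNA, and the exonuclease EXO1 (-0.36). Of 25 nucleotide synthesis genes, 4 were higher, RRM2B (0.33), IMPDH1 (0.28) and CTPS2 (0.17) among them, and 7 lower, with SHMT2 (-0.45), PRPS2 (-0.40) and PPAT (-0.23) the furthest from 0.

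Of 24 measured G1/S regulators, 10 were higher and 5 lower, against 15.8% and 14.6% of all genes. FBXO5, an inhibitor of the anaphase-promoting complex, was higher by 0.56, the atypical E2F factor E2F8 by 0.54 and CDK6 by 0.31, while CCND2, a cyclin D, was at -1.69, E2F7 at -0.51 and CDK4 at -0.27. Across these 3 lists, irradiation and time called 2 genes: TFDP2, a partner of E2F factors, rose by 0.61 from 4 h to 24 h in parental cells after 2 Gy (SE 0.11, adjusted p = 0.00364), and cyclin A2, CCNA2, fell by 0.25 on the log2 scale at 4 h after 2 Gy in the mean of both lines (SE 0.05, adjusted p = 0.00846). The background in these comparisons was 0.695% and 0.384% of all genes.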

How the data were processed

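Total RNA from 24 samples was hybridised to Affymetrix whole-transcript arrays. The authors deposited log2 signals for each probe set, which they made with RMA in Affymetrix Expression Console 1.1 per the submitters' processing notes. The sources used here do not give the genome build, nor which arrays RMA treated as 1 set.

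Of 24351 probe sets, 17709 carry 1 gene symbol in the platform annotation. Where a gene had several (20 genes), the probe set with the highest mean was kept, which left 17687 genes, none filtered out. Samples were grouped by the line, dose and time in their titles. limma 3.58.1 in R 4.3.3 fitted 1 mean per group to all 24 arrays (lmFit, eBayes with an intensity trend), and 17 comparisons were each adjusted by Benjamini-Hochberg over all genes; every p in the text is from this fit unless another is named. The members and gene lists were chosen with earlier results of these data known. Values by array were given for members called with a line difference of at least 0.4, members called for irradiation or time, and PCNA, RRM2, TYMS, MCM2, CDC6, CCNE2 and E2F1; where no member was called, the 3 largest differences were named. Other genes in the text were described for their role, and HELLS, TK1, LIG1, MCM6 and PRIM1 were given in more detail after their values were seen.

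The background level per array, from 612 negative control probe sets, was 3.46 to 3.81. Arrays carry no read depth, so their number limits the precision. The fit was tried on simulated data with 17687 genes, of which 200 were changed. It called 1.49%, 38.8% and 93.9% of genes changed by 0.25, 0.5 and 1 log2 units between lines at 0 Gy, 4 h. In the mean of 4 conditions it called 37.3% and 98.5% of those changed by 0.25 and 0.5. In the data 11.8% and 30.4% of all genes were called in these comparisons, so the adjusted threshold was less strict there. The simulated shares therefore do not give the rate at which changes were found in the data. Same-numbered replicates deviated together (every correlation above 0.1) in 4 of 12 comparisons of 2 groups: the lines at 4 h after 0 Gy and 24 h after 2 Gy, and irradiation in knockout cells at both times. Single correlations ran from -0.048 to 0.475, the highest for time in parental cells after 2 Gy, which is outside these 4. With the replicate number as a block, 2598 instead of 2081 of all genes were called between lines at 0 Gy, 4 h. RefSeq order placed 17683 of the 17687 genes. Alternatives changed the arrays in the fit, the replicate block, array weights, the intensity trend, a filter on dim genes, normalization, centring and the probe set rule.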

Additional observations from a re-analysis of the deposited data

How the results depend on the processing

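The count of members differing between the lines in the mean of 4 conditions was 19 and lay between 18 and 23 under the alternatives and between 18 and 21 on leaving out 1 array. With the 2 narrow arrays left out it was 19 with 13 higher and 6 lower, 16 of them among the original calls; MCM2 (adjusted p = 0.057), RFC2 (0.06) and CCNE1 (0.111) were no longer called, and CCNE2 was (-0.29, adjusted p = 0.0465). Of the 834 values of single genes under alternatives, 0 changed sign, 808 stayed on their side of the threshold, 24 fell short of it and 2 passed it. Medians of the members near 0 did change sign: for 2 Gy in knockout cells it lay between -0.01 and 0.03 at 4 h (0.01 as reported) and between -0.02 and 0.00 at 24 h (-0.01). After another quantile normalization the median line difference also changed sign in 2 conditions. It went from 0.018 to -0.002 at 0 Gy, 24 h and from 0.020 to -0.004 at 2 Gy, 4 h. Counts of members that moved by more than 1.5 times were, for the lines at 2 Gy, 4 h (6), 3 with the compared arrays only and 11 with array weights, and for 0 Gy, 4 h (8), 5 without the intensity trend. For 24 h minus 4 h in parental cells after 2 Gy (1), the count was 0 with the compared arrays only, without the trend and without both narrow arrays, 2 after another quantile normalization, and 4 with array weights. With the replicate block the count was 7 for the lines at 0 Gy, 24 h (4), 2 for that time comparison and 1 for time in unirradiated knockout cells (0); the block moved no other count of members by more than 1.5 times. On leaving out 1 array the counts ranged from 5 to 7 for the lines at 0 Gy, 4 h, 3 to 4 at 0 Gy, 24 h, 4 to 7 at 2 Gy, 4 h, 6 to 9 at 2 Gy, 24 h, 0 to 1 for time in parental cells after 2 Gy, and were 0 elsewhere. The cause of these changes was not tested, apart from the fewer arrays that some settings leave.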
